A study of Mus musculus with 19 samples.

Results

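The comparison described here is that of PDPN+ cells with EpCAM+ cells from pancreatic tumours of mice that received vehicle, which leaves out 9 neratinib libraries and keeps 10 of the 19 RNA-seq libraries of the series. The members were taken by their labels alone: vehicle treatment and the surface protein named for the sort. They are 4 libraries of PDPN+ cells, which the series calls cancer-associated fibroblasts (CAFs), and 6 libraries of EpCAM+ cells, which it calls epithelial cells. All tumours arose from T-LOH KPC organoids placed in the pancreas of C57BL/6J mice, and all 10 libraries follow 2 weeks of vehicle. KPC is the common name of mouse pancreatic tumour models whose driver alleles are switched on by a Cre active in the pancreas. The labels spell out neither these alleles nor the term T-LOH, and give no age, no vehicle formula, no number of organoid lines and no other surface marker of the sort. A 5-digit number in each title was read as the mouse, and the animals are called mice A to F here, in ascending order of that number. Mice A, C, D and E gave both populations, and mice B and F gave EpCAM+ cells alone. The p-values rest on this reading, under which no group holds 2 libraries of 1 animal.

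Between 36.7 and 48.1 M reads (M stands for 1000000) were assigned to genes in PDPN+ libraries, and between 44.4 and 75.4 M in EpCAM+ libraries. The PDPN+ libraries of mice A and E, called the sparse libraries below, held 12102 and 11924 genes with at least 10 reads, against 16150 and 18602 in the other PDPN+ libraries and 16777 to 17984 in EpCAM+ libraries. Of the genes with at least 10 CPM (counts scaled to a library total of 1000000) in the other PDPN+ libraries, 2.62% and 2.03% had no more than the floor of 3 reads in these libraries, and none in the other PDPN+ libraries. Mitochondrial genes took 6.14 to 17.3% of PDPN+ and 2.15 to 2.89% of EpCAM+ reads (exact two-sided permutation test, p = 0.00476, the smallest that 4 against 6 libraries can give; adjusted over 5 library measures, p = 0.00794). Pearson correlations of log2 CPM ran from 0.736 to 0.904 within PDPN+ libraries, from 0.929 to 0.979 within EpCAM+ libraries and from 0.548 to 0.667 between them. Counts are therefore also given without the sparse libraries.

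CAFs are the mesenchymal cells of the pancreatic tumour stroma, which deposit the dense fibrous matrix for which this cancer is known. They are described in overlapping states: myofibroblastic CAFs (myCAFs) with contractile and matrix genes, inflammatory CAFs (iCAFs) with cytokines and chemokines, and antigen-presenting CAFs (apCAFs) with MHC class II and mesothelial genes. Podoplanin, the PDPN protein, is a membrane glycoprotein of many fibroblasts, of mesothelium and of lymphatic endothelium, while EpCAM is an adhesion molecule of epithelial cells. Epithelial identity rests on cadherin contacts, tight junctions and apical-basal polarity, kept up by factors such as GRHL2, ELF3 and the FOXA proteins. ZEB, SNAI and TWIST factors switch that programme off during epithelial-mesenchymal transition.

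Since the sort used the proteins, the transcripts of Pdpn and Epcam describe the sort and are no finding. Pdpn (ENSMUSG00000028583) stood at 765, 552, 417 and 489 CPM in the PDPN+ libraries of mice A, C, D and E, the order kept below, and at 0.921 to 3.18, median 1.38, in EpCAM+ libraries. Epcam (ENSMUSG00000045394) stood at 0, 0.5, 0.664 and 0 CPM in PDPN+ libraries and 164 to 984, median 211, in EpCAM+ libraries, where the 2 highest values came from mice A and B. The sort labels hold in all 10 libraries, and neither gene overlapped between the populations.

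Across the genome, 5421 of 17601 genes tested (30.8%) differed between the populations at an adjusted p under 0.05 in edgeR's quasi-likelihood test with Benjamini-Hochberg adjustment. Of these, 2834 (16.1% of genes tested) were higher and 2587 (14.7%) lower in PDPN+ cells. All 4 PDPN+ libraries lay above every EpCAM+ library for 2227 genes (12.7%) and below every EpCAM+ library for 3297 genes (18.7%). Without the sparse libraries 8477 of 19989 genes tested passed, 4282 of them higher and 4195 lower. With the mouse as a block, over the 8 libraries of the 4 mice with both populations, 1849 of 16688 passed (1080 higher and 769 lower). The same libraries with no block gave 3642. On log2(TPM + 1), a scale per transcript length, 1961 of 6921 calls were higher, a share of 28.3% against 52.3% on counts. There 14331 genes were tested, and their median log2 difference was -0.59 against -0.10 on counts. With transcript-length offsets on the counts, 2734 of 5473 calls were higher and the median was -0.16. The source of the shift on log2(TPM + 1) was not tested. Of the 17601 genes tested on counts, 742 had 0 reads in all PDPN+ libraries and 18 had 0 reads in all EpCAM+ libraries. These are bulk samples, in which fewer cells of a type and less RNA per cell cannot be told apart.

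Most transcription factor genes of mesenchyme that could be tested were higher in PDPN+ cells. Of 26 tested on a list of 32 such factors, 18 were higher, 1 lower and 7 did not pass; the rest were too low to test. The counts were 18 higher and 1 lower without the sparse libraries, and 10 and 0 with the mouse block. The median log2 difference was 3.34, beside -0.10 over all genes tested.

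Prrx1, a homeobox factor of limb and stromal mesenchyme, stood at 81.7, 72.2, 114 and 117 CPM in PDPN+ libraries and 0 to 0.253, median 0.0378, in EpCAM+ libraries. The groups lay far apart: the log2 difference was 10.52 ± 0.94 (SE, as after every log2 difference below) with an edgeR adjusted p of 1.73e-05. Twist1, a helix-loop-helix factor of mesenchyme, stood at 12.4, 7.64, 15.5 and 28.4 CPM and had reads in a single EpCAM+ library, at 0.0175 CPM; its log2 difference was 11.52 ± 1.03 (adjusted p = 1.48e-05). Wt1, a zinc-finger factor of mesothelium and coelomic mesenchyme, stood at 102, 191, 156 and 114 CPM against 0.0698 to 0.796, median 0.294 (log2 difference 8.71 ± 0.71). Osr1, an odd-skipped factor of intermediate mesoderm, stood at 437, 306, 366 and 189 against 0.0524 to 3.00, median 0.446 (log2 difference 8.25 ± 0.99). Wt1 and Osr1 had the highest TPM (a transcript level corrected for transcript length) of the list in PDPN+ cells together with Tcf4 and Zeb2, with means of 72.7, 196, 62.1 and 35.3.

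The genes of factors known to drive epithelial-mesenchymal transition were divided. Zeb1, a zinc-finger repressor of epithelial genes, stood at 71.9, 49.0, 87.0 and 59.6 CPM in PDPN+ cells and 0.398 to 7.53, median 1.96, in EpCAM+ cells (log2 difference 4.51 ± 0.79, edgeR adjusted p = 0.00126). Its relative Zeb2 stood at 129, 139.7, 146 and 238 CPM against 0.124 to 6.41, median 1.57 (log2 difference 5.97 ± 0.88). Among the EpCAM+ libraries both were highest in mice D and F, and Zeb1 was lowest in mouse B and Zeb2 in mouse A. Snai1 was higher as well (log2 difference 4.13 ± 0.82, adjusted p = 0.00272), while Snai2 (3.10 ± 1.37, adjusted p = 0.116) and Twist2 (-1.03 ± 1.37, adjusted p = 0.609, and 0.00587 without the PDPN+ library of mouse D) did not pass; these 3 genes were picked after their values were seen. Foxf2, a forkhead factor of gut mesenchyme, went against the rest of the list: it stood at 0, 0, 0.247 and 0 CPM in PDPN+ libraries and 3.72 to 5.68, median 4.98, in EpCAM+ libraries (adjusted p = 0.00594, and 0.0647 with the mouse block). Its close relative Foxf1 was higher in PDPN+ cells, with TPM means of 3.66 and 0.0479 in PDPN+ and EpCAM+ cells (adjusted p = 0.000766, and 0.0837 with the block).

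Epithelial transcription factor genes showed the opposite pattern. Of 30 tested, 22 were lower in PDPN+ cells, 2 higher and 6 did not pass; the counts were 2 higher and 23 lower without the sparse libraries and 2 and 12 with the mouse block. The median log2 difference was -8.72, or -5.94 with the 11 genes that had 0 reads in every PDPN+ library set at their bound. Those genes include Pdx1, Foxa1, Foxa2, Ovol1, Spdef and Cdx2, factors of endoderm and its glands.

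Elf3, an ETS factor of epithelia, was the most abundant of the list in EpCAM+ cells by TPM (805); it stood at 0.0326, 6.66, 2.12 and 0.035 CPM in PDPN+ libraries and 673 to 1282, median 1058, in EpCAM+ libraries (log2 difference -8.83 ± 1.41, edgeR adjusted p = 0.000706). Grhl2, a Grainyhead factor that maintains junction genes, stood at 0.0326, 0.0227, 0.493 and 0.035 CPM against 32.9 to 55.6, median 39.0 (log2 difference -8.05 ± 1.02). Ehf and Klf5, another ETS factor and a Krüppel-like factor, were lower as well, with log2 differences of -8.61 ± 1.36 and -4.58 ± 0.55. Hnf4a, a nuclear receptor of liver and gut epithelium, stood at 0, 0, 0.0759 and 0 CPM in PDPN+ libraries and 18.7 to 228, median 166, in EpCAM+ libraries, where mice A and B were lowest. No PDPN+ library reached the lowest EpCAM+ library for any of these 5 genes.

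Klf4 and Gata6, both on the epithelial list, were instead higher in PDPN+ cells. Klf4, a Krüppel-like factor of barrier epithelia and also an immediate early gene, stood at 643, 777, 670.5 and 644 CPM against 61.4 to 134, median 93.0 (log2 difference 2.80 ± 0.21, edgeR adjusted p = 5.88e-06). Gata6, an endodermal GATA factor whose level is used to define classical pancreatic tumours, stood at 82.1, 72.8, 60.5 and 35.7 CPM in PDPN+ libraries and 1.56 to 10.5, median 4.51, in EpCAM+ libraries (log2 difference 3.63 ± 0.53, adjusted p = 0.000424). All 4 PDPN+ libraries were above all EpCAM+ libraries for both, and both passed with the mouse block (adjusted p = 0.0014 and 0.0111).

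**Figure D1:**
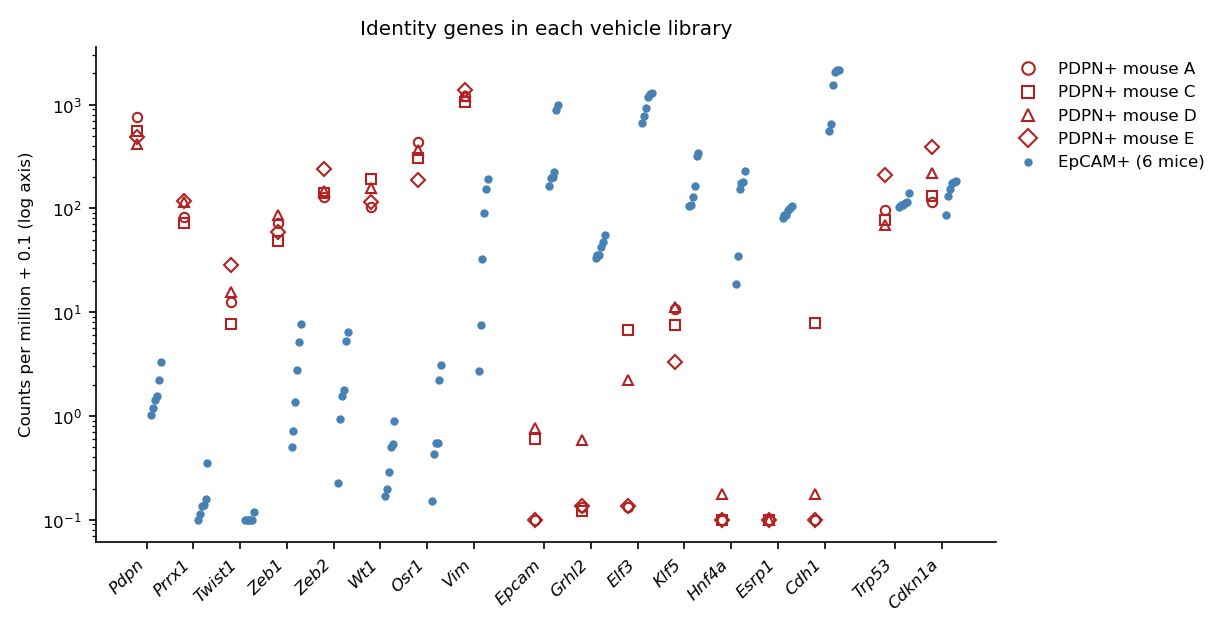
CPM plus 0.1 on a log axis for identity genes in each of the 10 vehicle libraries, with open red symbols for the 4 PDPN+ libraries and blue dots for the 6 EpCAM+ libraries. Every gene from Pdpn to Vim lies higher in all PDPN+ libraries, every gene from Epcam to Cdh1 lies lower in all of them, and Trp53 and Cdkn1a overlap.

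The adhesion machinery of epithelium separated the populations next. Of 19 tight junction genes tested 14 were lower in PDPN+ cells, 2 higher and 3 did not pass (2 higher and 17 lower without the sparse libraries). Of 21 polarity and apical trafficking genes 13 were lower, 0 higher and 8 did not pass (0 higher and 17 lower without the sparse libraries). Among 21 cadherin, catenin and desmosome genes 14 were lower, 3 higher and 4 did not pass (3 higher and 16 lower without the sparse libraries). Median log2 differences of the 3 lists were -6.83, -4.41 and -3.29.

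Cdh1, which encodes E-cadherin, stood at 0, 7.68, 0.0759 and 0 CPM in PDPN+ libraries and 553 to 2179.8, median 1804, in EpCAM+ libraries (log2 difference -9.60 ± 1.91, edgeR adjusted p = 0.00281). Without the PDPN+ library of mouse C the fitted difference was -15.45, and of the PDPN+ libraries that of mouse C alone held more than 0.1 CPM of it. Cldn4, a claudin of tight junctions and the most abundant of that list in EpCAM+ cells by TPM (1819), stood at 0, 18.7, 1.23 and 0 CPM against 1095 to 3146, median 2169 (log2 difference -8.71 ± 1.84). Cldn7 stood at 0.0326, 1.39, 0.531 and 0 against 329 to 589.9, median 474 (log2 difference -9.84 ± 1.13). Cldn23 had 0 reads in all PDPN+ libraries and a mean at least 1180-fold higher in EpCAM+ cells, against the floor of 3 reads in the shallowest PDPN+ library. Prom1, an apical membrane protein also known as CD133, stood at 0.456, 2.73, 2.2 and 54.1 CPM in PDPN+ and 1628 to 3277, median 2449, in EpCAM+ libraries, and was highest among PDPN+ libraries in mouse E. Lad1, a protein of the epithelial anchoring filaments, had reads in mouse D alone among PDPN+ libraries, at 0.588 CPM, against 365 to 713, median 559.9.

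The catenin genes differed far less than the cadherin they bind. Ctnnb1, which encodes beta-catenin, stood at 229, 228, 154 and 148 CPM against 341 to 607, median 481, a log2 difference of -1.34 ± 0.22, and Ctnna1, alpha-catenin, at -1.42 ± 0.24 (edgeR adjusted p = 0.000939 and 0.000947). Both are shared by all classical cadherins. PDPN+ cells carried another cadherin set: Cdh11, a mesenchymal cadherin, stood at 164, 165, 199 and 311 CPM against 0.324 to 1.76, median 0.377 (log2 difference 8.37 ± 0.61). Cdh2, N-cadherin, stood at 16.7, 44.2, 73.1 and 20.8 against 0.0571 to 1.23, median 0.43 (log2 difference 6.27 ± 0.82). Cdh3, P-cadherin, was higher too (2.59 ± 0.48, adjusted p = 0.00181, and 0.0558 with the mouse block). The claudins against the rest were Cldn10 (139.5, 128, 58.1 and 115 CPM in PDPN+ and 0.262 to 1.48, median 0.591, in EpCAM+ libraries) and Cldn15 (60.9, 107, 64.8 and 91.6 and 0.299 to 3.14, median 0.593), both above every EpCAM+ library. By TPM, Cdh11 (40.9) was the cadherin gene with the highest level in PDPN+ cells and Cdh1 (523) that in EpCAM+ cells, with Cdh17, an intestinal cadherin, next at 407.

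ZEB1 and SNAI1 proteins are known to bind E-box sequences of the form CAGGTG in promoters of junction genes. Since these genes were low together where Zeb1 and Snai1 were higher, promoter windows of 300 bases (250 before to 50 after the transcript start; RefSeq, build GRCm38.p6) were searched for CAGGTG and its reverse complement CACCTG, so that both strands are covered. The motif was found in 8 of 19 tight junction genes with an entry, 9 of 14 polarity genes and 1 of 5 cadherin and desmosome genes. Of the 41 genes of these lists that were lower in PDPN+ cells only 24 had an entry, and 14 of these (58.3%) held the motif. It occurred in 22.0% of 11733 genes tested here with an entry and in 22.6% of all 27025 genes of the table, or 20.2% of its 32851 windows. It was in 8 of 18 epithelial factor, 2 of 18 mesenchymal factor and 0 of 8 fibrillar collagen genes. A match is a description of the letters and no sign that a factor binds. The set of lower genes was picked by its calls in these data, and no test of the motif shares was made. Whether ZEB1 or SNAI1 acts on these genes was not tested. Cdh1 and Esrp1 had no entry.

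Below are the windows of Epcam and of 4 junction or polarity genes, picked because they hold at least 2 matches and stood near 0 in PDPN+ cells, so that they are no sample of the lists. The window of Pdpn, high in PDPN+ cells, holds 1 match as well, and those of Lad1 and Cgn, lower in PDPN+ cells, hold none. Capitals mark the motif, and each sequence runs 5′ to 3′ on the strand of its gene.
Epcam (the sort marker; chr17:87635729-87636028, plus strand): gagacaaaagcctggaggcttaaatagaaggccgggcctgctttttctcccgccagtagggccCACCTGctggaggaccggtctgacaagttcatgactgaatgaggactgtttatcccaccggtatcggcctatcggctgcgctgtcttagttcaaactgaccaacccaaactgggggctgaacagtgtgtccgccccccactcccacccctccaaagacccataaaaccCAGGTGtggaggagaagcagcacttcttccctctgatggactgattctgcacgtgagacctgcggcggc
Cldn4 (a claudin; chr5:134946885-134947184, minus strand): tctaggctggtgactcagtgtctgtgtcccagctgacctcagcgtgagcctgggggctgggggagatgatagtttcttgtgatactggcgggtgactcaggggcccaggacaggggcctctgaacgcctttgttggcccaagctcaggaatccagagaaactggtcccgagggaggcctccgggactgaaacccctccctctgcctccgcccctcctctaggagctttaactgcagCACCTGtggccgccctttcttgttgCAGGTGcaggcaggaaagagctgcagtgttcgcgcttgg
Cldn7 (a claudin, the later of its windows; chr11:69965171-69965470, plus strand): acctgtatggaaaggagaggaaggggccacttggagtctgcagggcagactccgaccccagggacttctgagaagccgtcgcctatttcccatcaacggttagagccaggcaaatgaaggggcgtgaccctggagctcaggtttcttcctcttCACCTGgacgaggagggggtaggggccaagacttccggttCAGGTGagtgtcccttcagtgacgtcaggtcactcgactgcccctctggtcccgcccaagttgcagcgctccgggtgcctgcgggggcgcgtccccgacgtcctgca
Crb3 (an apical polarity protein; chr17:57061951-57062250, plus strand): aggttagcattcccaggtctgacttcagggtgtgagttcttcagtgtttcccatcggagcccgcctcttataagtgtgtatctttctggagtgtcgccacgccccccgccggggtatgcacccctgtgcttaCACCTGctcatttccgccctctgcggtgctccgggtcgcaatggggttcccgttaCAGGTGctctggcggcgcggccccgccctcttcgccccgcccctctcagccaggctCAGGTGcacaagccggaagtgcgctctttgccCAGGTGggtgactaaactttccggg
Rab25 (a GTPase of apical recycling; chr3:88548230-88548529, minus strand): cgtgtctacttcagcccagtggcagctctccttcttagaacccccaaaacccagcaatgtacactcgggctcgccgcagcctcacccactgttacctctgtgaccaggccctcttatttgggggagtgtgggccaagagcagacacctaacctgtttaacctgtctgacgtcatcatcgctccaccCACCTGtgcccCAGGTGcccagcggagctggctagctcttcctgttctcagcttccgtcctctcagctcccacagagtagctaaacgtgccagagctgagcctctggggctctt

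Crb3, whose window holds 4 matches, stood at 0.326, 0, 0.114 and 0 CPM in PDPN+ libraries and 104 to 152, median 129, in EpCAM+ libraries (log2 difference -10.21 ± 0.98, edgeR adjusted p = 2.76e-05). Rab25 stood at 0, 2.09, 0.322 and 0 CPM against 68.1 to 130.4, median 114 (log2 difference -7.41 ± 1.34, adjusted p = 0.0015). Every EpCAM+ library was above every PDPN+ library for both.

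Among splicing regulators, Esrp1, which directs epithelial exon choice, had 0 reads in all PDPN+ libraries and stood 81.6 to 104, median 92.0, CPM in EpCAM+ libraries, at least 884-fold higher. Esrp2 was lower as well, with TPM means of 1.52 and 29.2 in PDPN+ and EpCAM+ cells (edgeR adjusted p = 0.0108, and 0.074 with the mouse block), and so were Rbm47 (log2 difference -2.58 ± 0.58) and Ptbp3 (-1.73 ± 0.28). Celf2 and Qk, RNA-binding proteins of mesenchymal and neural cells, were higher: Celf2 stood at 304, 174, 126 and 65.1 CPM against 9.28 to 18.1, median 12.7 (log2 difference 3.65 ± 0.38), and Qk at 2.34 ± 0.38. Rbfox2 passed at an edgeR adjusted p of 0.0165, but not with the mouse block (0.143), without the sparse libraries (0.134) or without that of mouse E (0.0592). In all, 3 of 11 were higher (27.3%) and 4 lower (36.4%), beside 16.1% and 14.7% over all genes tested. The muscleblind gene Mbnl1 did not pass (log2 difference 0.28 ± 0.17).

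Krt8, Krt18, Krt19 and Krt7, the simple-epithelium keratins, were lower in PDPN+ cells, where most libraries still held them. Krt19 stood at 807, 417, 258 and 276 CPM in PDPN+ libraries and 3877 to 6083, median 4808, in EpCAM+ libraries (log2 difference -3.50 ± 0.35, edgeR adjusted p = 4.03e-05). Krt8 stood at 649, 686, 380.3 and 276 CPM against 4618 to 7169, median 5494 (-3.53 ± 0.30). Krt7 stood at 175, 93.3, 62.1 and 20.1 against 1926 to 3316, median 2305 (-4.86 ± 0.56). For these 3 genes every PDPN+ library held at least 20.1 CPM, and every EpCAM+ library was higher still. Krt18 stood at 401, 318, 225 and 0.14 CPM, so that its library of mouse E was nearly empty of it while Krt8, its filament partner, was not; Krt18 passed at an adjusted p of 0.017 and without the sparse libraries (2.32e-05), but not with the mouse block (0.116).

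Mesothelium, the lining of the abdominal organs, is known to make these keratins too, and mesothelial genes were high in the same libraries. Upk3b stood at 1245, 871, 483 and 384 CPM in PDPN+ and 0.0873 to 14.1, median 3.59, in EpCAM+ libraries (log2 difference 7.24 ± 1.08), Gpm6a at 694, 211, 166 and 186 against 0.118 to 3.38, median 1.24 (7.64 ± 0.98). Lrrn4 stood at 38.4, 80.5, 139 and 33.8 against 0.0175 to 7.08, median 1.1 (5.22 ± 1.16); these 3 were picked after their values were seen. Msln, which encodes mesothelin and is also made by pancreatic tumour cells, stood at 1339.7, 705, 377 and 218 CPM against 717 to 1233, median 968, and did not pass (log2 difference -0.55 ± 0.43, edgeR adjusted p = 0.373, and 0.0267 as lower in PDPN+ cells without the library of mouse A). In the same PDPN+ libraries Epcam, Cdh1, Cldn4, Cldn7 and Elf3 lay between 0 and 18.7 CPM. Which cells the keratin reads came from was not tested.

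**Figure D2:**
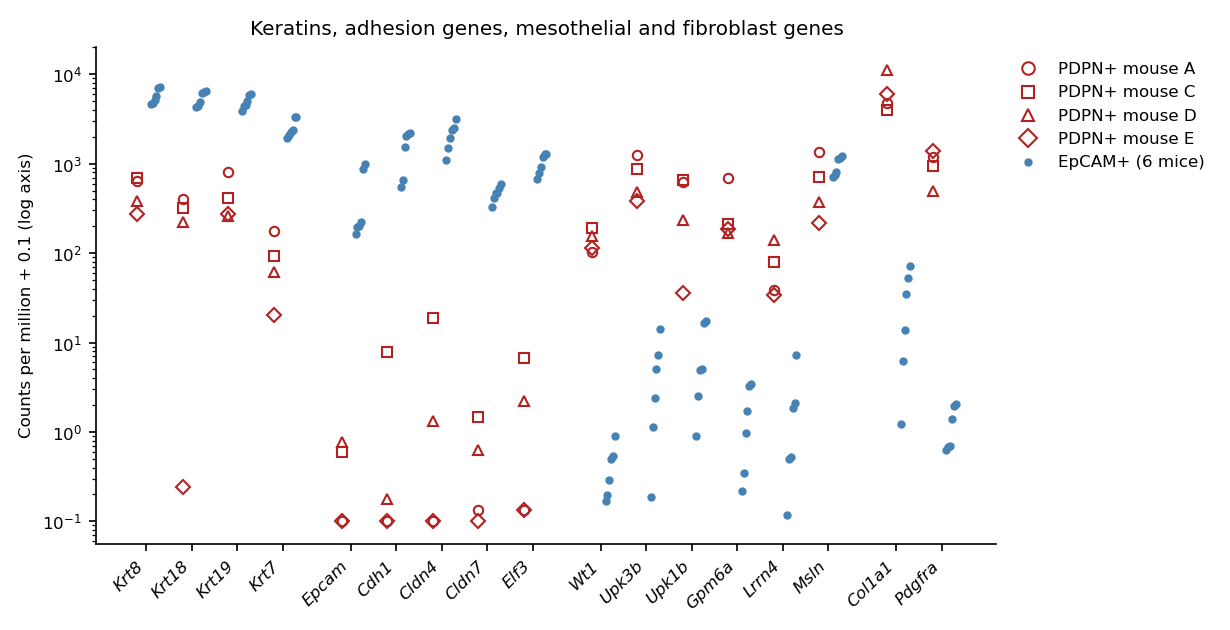
CPM plus 0.1 on a log axis for keratin, adhesion, mesothelial and fibroblast genes in each vehicle library, with open red symbols for the 4 PDPN+ libraries and blue dots for the 6 EpCAM+ libraries. Krt8, Krt19 and Krt7 lie at 20.1 to 807 in PDPN+ libraries while Epcam, Cdh1, Cldn4, Cldn7 and Elf3 lie at 18.7 or below, and Msln overlaps between the populations.

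Vim, which encodes vimentin, the intermediate filament of mesenchyme, stood at 1221, 1051, 1199.9 and 1373 CPM in PDPN+ libraries and 2.59 to 190.0, median 61.7, in EpCAM+ libraries (log2 difference 3.93 ± 0.95, edgeR adjusted p = 0.00855). The PDPN+ values lay close together, while EpCAM+ libraries spread widely, lowest in mice A and B. Des, the desmin of muscle and stellate cells, stood at 195, 28.3, 83.0 and 239.8 CPM against 0 to 0.38, median 0.0825 (10.02 ± 1.22). Vim and Des were the 2 intermediate filament genes of 17 tested that were higher, against 9 lower, all of them keratins, and 6 not passing.

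**Figure D3:**
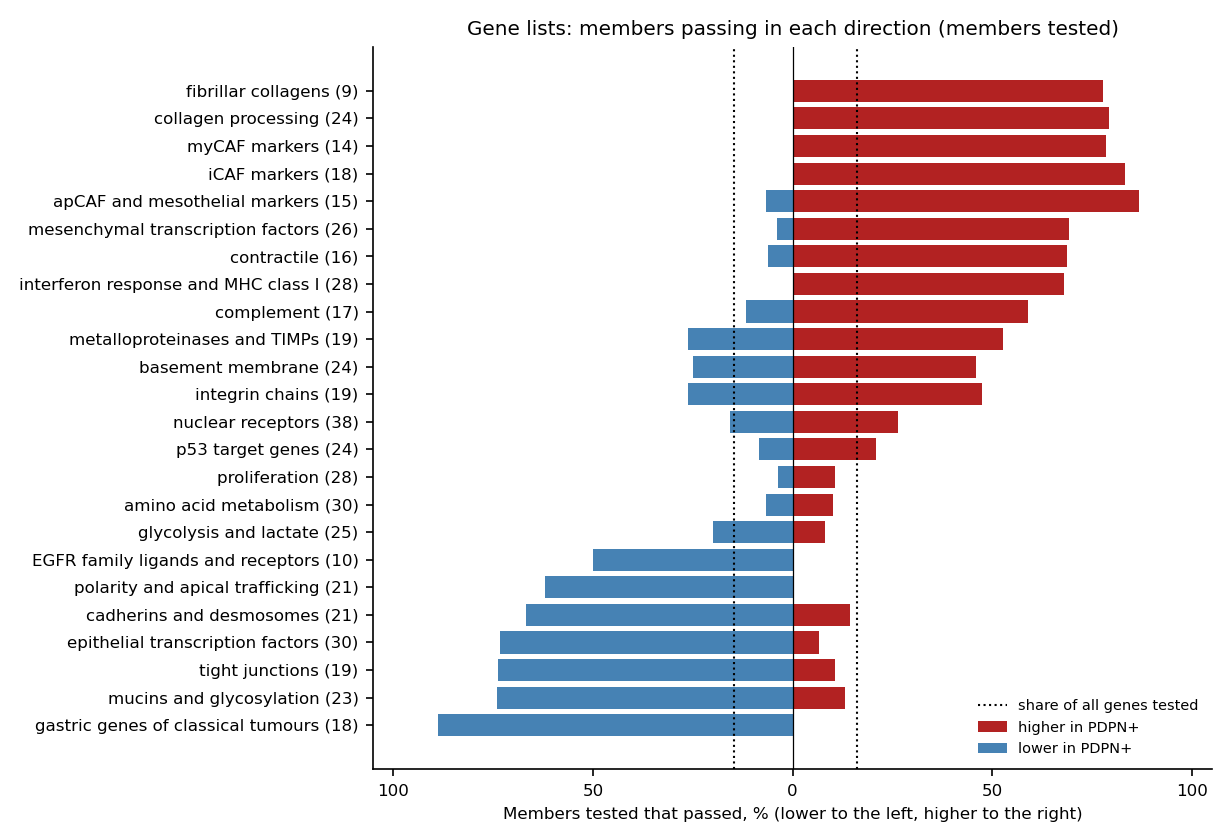
Share of the tested members of each gene list that passed as higher (red, to the right) or lower (blue, to the left) in PDPN+ cells, in percent, with the number tested in brackets. Dotted lines mark the shares over all genes tested, 16.1% higher and 14.7% lower; matrix and CAF lists extend to the right and junction, mucin and gastric lists to the left.

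Matrix genes were among the most abundant of those higher in PDPN+ cells. Of 9 fibrillar collagen genes tested 7 were higher and none lower, with the same count with the mouse block and without the sparse libraries, and a median log2 difference of 8.12. Col1a1, the main chain of type I collagen, stood at 4799.6, 4005, 11296 and 6060.0 CPM in PDPN+ libraries and 1.12 to 71.9, median 24.4, in EpCAM+ libraries (log2 difference 7.76 ± 1.03, edgeR adjusted p = 0.000251). Its partner chain Col1a2 stood at 4274, 4905, 6738 and 5031 CPM against 2.05 to 9.53, median 6.22 (9.84 ± 0.52). Col3a1 stood at 3567, 4946, 6324 and 5664 against 2.63 to 56.8, median 12.0 (8.12 ± 0.84). No EpCAM+ library came near a PDPN+ library for these chains. Col27a1 (0.82 ± 0.53) and Col11a2 (0.44 ± 1.10) did not pass.

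Genes that fold, cut and crosslink collagen followed: 19 of 24 were higher and none lower (20 higher and 1 lower without the sparse libraries; 18 and 0 with the mouse block). Serpinh1, the collagen chaperone HSP47, stood at 6737, 7073, 6368 and 9098 CPM against 51.7 to 305, median 158 (log2 difference 5.46 ± 0.44), which puts it at 3827 TPM in PDPN+ cells, above Col1a1 at 1375 and Col3a1 at 1658 on that per-length scale. P4ha1, a prolyl hydroxylase, was higher by 2.48 and Pcolce, an enhancer of procollagen cleavage, by 3.98. Levels of Tgm2, tissue transglutaminase, did not pass the test (-0.39 ± 0.40). Sparc, a collagen-binding glycoprotein, and Dcn, the proteoglycan decorin, were among the most abundant genes by TPM with a log2 difference of at least 3: Sparc stood at 8364, 9872, 10717 and 9338 CPM against 5.43 to 27.1, median 16.0, and Dcn at 10645, 6776, 3549 and 4970.1 against 0.559 to 44.9, median 9.07. Lgals1, the lectin galectin-1, was in that group with 4059, 4644, 3873 and 5098 CPM against 214 to 317, median 261, and a log2 difference of 4.07 ± 0.15.

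Basement membrane genes were split between the populations by chain. Of 24 tested, 11 were higher, 6 lower and 7 did not pass (11 higher and 5 lower without the sparse libraries). PDPN+ cells carried the laminin alpha chains Lama1, Lama2 and Lama4: Lama4 stood at 289.8, 147, 158 and 157 CPM against 0.535 to 2.72, median 1.11 (log2 difference 7.10 ± 0.51). Lama2 stood at 1.04, 32.1, 19.5 and 42.2 against 0 to 0.0905, median 0.0371 (9.35 ± 1.30), lowest in mouse A. EpCAM+ cells carried Lama3 and Lamb3, chains of a laminin on which epithelial cells anchor, and Lama5. Lamb3 stood at 0.0326, 5.39, 0.247 and 0 CPM in PDPN+ libraries and 57.9 to 759.8, median 371, in EpCAM+ libraries (-7.98 ± 1.72, edgeR adjusted p = 0.00445). Lama3 stood at 0.0326, 7.7, 0.0948 and 0 against 149 to 584, median 337 (-7.51 ± 1.70, and -12.82 without the PDPN+ library of mouse C). The Lama1, Lama2, Lama3 and Lama4 genes were picked after their values were seen.

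The gamma chain Lamc1 and the linker genes Nid1 and Hspg2, encoding nidogen and perlecan, were higher in PDPN+ cells (log2 differences 1.32 ± 0.21, 3.01 ± 0.41 and 3.41 ± 0.50), while the beta chains Lamb1 (0.09 ± 0.53) and Lamb2 (-0.88 ± 0.67) did not pass. Nor did Col4a1 (1.12 ± 0.61) and Col4a2 (1.29 ± 0.61), the main type IV collagen chains, which stood at 139, 79.1, 228 and 85.3 and 120.3, 68.5, 173 and 27.4 CPM in PDPN+ libraries. Without the EpCAM+ libraries of mice A and B, Lamb2 passed as lower in PDPN+ cells (log2 difference -1.36, edgeR adjusted p = 0.0408). Col18a1, a basement membrane collagen and the source of endostatin, was lower in PDPN+ cells at an edgeR adjusted p of 0.00852, but at 0.0647 with the mouse block and 0.0605 without the sparse libraries. It stood at 39.6, 55.2, 51.7 and 23.7 CPM in PDPN+ libraries and at 46.8 and 57.8 CPM in the EpCAM+ libraries of mice A and B, with the other EpCAM+ libraries between 638 and 991.

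Integrins, the receptors for these matrices, were divided in a like way. Of 19 chains tested 9 were higher and 5 lower (9 higher and 7 lower without the sparse libraries; 4 and 3 with the mouse block). Itgb6, an epithelial chain that activates latent TGF-beta, stood at 0, 1.61, 0.19 and 0.175 CPM in PDPN+ libraries and 68.5 to 159, median 113, in EpCAM+ libraries (log2 difference -7.76 ± 1.12, edgeR adjusted p = 0.000396). Itgb4, a chain of hemidesmosomes, was lower too (log2 difference -2.85 ± 0.58). Itgb5, a vitronectin receptor chain, stood at 116, 49.0, 127 and 58.9 CPM against 8.5 to 16.7, median 13.6 (2.79 ± 0.36). Itga11, a fibroblast receptor for fibrillar collagen picked after its values were seen, stood at 6.84, 1.16, 9.16 and 8.01 against 0 to 0.19, median 0.0186 (7.08 ± 1.30). Itgb1, the partner of most alpha chains, stood at 252, 191, 390.5 and 334 CPM against 121 to 450.4, median 202, and did not pass. Itgav, higher in PDPN+ cells, passed at 0.00262 and Itga2, a collagen receptor chain that was lower, at 0.0171, but neither did with the mouse block (adjusted p = 0.0761 and 0.0892).

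**Figure D4:**
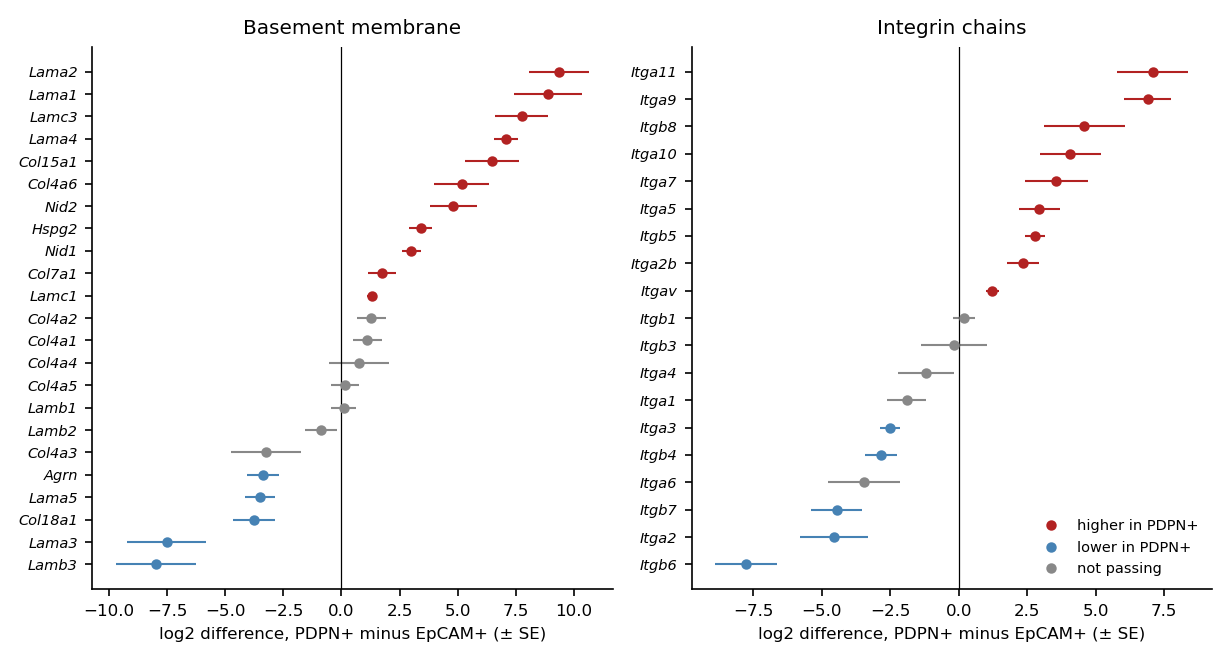
Log2 difference of PDPN+ minus EpCAM+ cells with its standard error for all but 1 of the tested basement membrane genes and for the tested integrin chains, red where higher, blue where lower and grey where not passing. Lama1, Lama2 and Lama4 lie to the right and Lama3 and Lamb3 to the left, while Itgb1 lies near 0.

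Matrix proteases and their inhibitors showed both directions, 10 of 19 higher and 5 lower (10 higher and 6 lower without the sparse libraries; 8 and 1 with the mouse block). Timp1 and Timp3, inhibitors of metalloproteinases, stood at 1519, 1584, 1515 and 2836 and 3238, 6698, 4026 and 6819.5 CPM in PDPN+ libraries, with log2 differences of 7.38 ± 0.29 and 6.97 ± 0.38. Mmp2, a gelatinase, stood at 563, 222, 566 and 580.0 CPM against 0 to 2.21, median 0.3 (9.41 ± 1.38), lowest in mouse C. Mmp7, the epithelial matrilysin, was lower, with 0, 1.52, 0 and 0 CPM against 15.6 to 78.8, median 50.3 (-6.97 ± 1.65, edgeR adjusted p = 0.00785, and -14.29 without the PDPN+ library of mouse C). Adam8 (-4.51; adjusted p = 0.0107, and 0.0664 with the mouse block) and Adam10 (-0.81; 0.00717, and 0.0538 with the block) were lower too.

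All 3 CAF programmes were carried by the PDPN+ cells. Of 14 myCAF genes tested 11 were higher, of 18 iCAF genes 15, and of 15 apCAF and mesothelial genes 13, with the same counts without the sparse libraries. The only member lower was Krt19, on the last list. Median log2 differences were 5.78, 8.21 and 7.24. Summed over each list, myCAF genes took 1237 to 3794 CPM in PDPN+ and 591 to 744 CPM in EpCAM+ libraries. The iCAF genes took 8021 to 15851 CPM in PDPN+ and 155 to 286 CPM in EpCAM+ libraries. The apCAF and mesothelial genes took 7936 to 35178 CPM in PDPN+ and 4919 to 7317 CPM in EpCAM+ libraries. Most of that last sum was Saa3 and Slpi in every PDPN+ library and Krt19 in EpCAM+ libraries. It therefore says little about MHC class II genes.

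The balance among programmes varied between PDPN+ libraries. Acta2, smooth muscle actin of myCAFs, stood at 56.7, 137, 287 and 261 CPM and Thy1, a surface protein of fibroblasts, at 30.7, 50.9, 161 and 312; both were lowest in mouse A and higher in mice D and E. Saa3, a serum amyloid of inflamed stroma and mesothelium, stood at 15442, 12979, 3783 and 3631 CPM, Slpi, a secreted protease inhibitor, at 9231, 6993, 2192 and 1405, and Cd74, the MHC class II invariant chain, at 3228, 2114, 1059 and 684; all 3 were highest in mouse A and next in mouse C. In EpCAM+ libraries Acta2 stood 0.187 to 1.76, median 0.783, CPM, Saa3 0.0349 to 3.75, median 1.37, and Cd74 11.6 to 39.0, median 13.1. The iCAF chemokine genes were more even: Cxcl1 stood at 724, 647, 473 and 848 CPM, Ccl2 at 1270.3, 725, 462 and 848 and Ccl7 at 611, 573, 422 and 417, against EpCAM+ medians of 1.17, 0.461 and 0.199. With 4 animals no test of this spread was made.

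The fitted log2 differences were 7.72 ± 0.70 for Acta2, 9.96 ± 1.05 for Thy1, 12.55 ± 1.18 for Saa3, 8.83 ± 1.02 for Slpi, 6.53 ± 0.56 for Cd74 and 9.03 ± 0.41 for Cxcl1. Of all genes that the rule named outside the mitochondrial genome, Saa3 (21500.0) and Slpi (7674) had the highest TPM in PDPN+ cells. Among the genes with the largest differences at a mean of at least 50 CPM were Pdzrn3, a ubiquitin ligase, with 89.8, 76.3, 74.3 and 90.3 CPM and reads in a single EpCAM+ library, Cxcl13, a B-cell chemokine, with 975, 44.4, 125 and 361, Fbn2, fibrillin-2, with 57.6, 28.8, 234 and 121, Srpx with 331, 259.7, 154 and 104, and Dpt, the matrix protein dermatopontin, with 246, 145, 204 and 57.9. EpCAM+ libraries held at most 0.274 CPM of each. Contractile genes, Acta2 included, gave 11 higher and 1 lower of 16 (11 higher and 0 lower without the sparse libraries; 8 and 2 with the mouse block). Cald1, caldesmon, led them by TPM (1923 against 53.2), while the tropomyosin gene Tpm1 stood at 511, 450.4, 621 and 729 CPM against 422 to 558, median 453, and did not pass.

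EpCAM+ cells in turn carried secretory genes known from classical pancreatic tumours, which resemble those of stomach lining. Gata6, whose level is used to define such tumours, was instead higher in PDPN+ cells, as given above. Of 18 gastric genes tested 16 were lower in PDPN+ cells and none higher (0 higher and 17 lower without the sparse libraries; 0 and 13 with the mouse block), with a median log2 difference of -7.92, or -7.69 with genes at 0 in PDPN+ libraries set at their bound. Of 23 mucin and mucin glycosylation genes 17 were lower and 3 higher (3 higher and 17 lower without the sparse libraries; 0 and 10 with the mouse block).

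Dmbt1, a secreted scavenger glycoprotein, stood at 0.228, 0.0909, 0.322 and 0.105 CPM in PDPN+ libraries and 8677 to 18730.0, median 11508, in EpCAM+ libraries (log2 difference -15.96 ± 0.59, edgeR adjusted p = 1.2e-07). Lgals4, a galectin of gut epithelium, stood at 17.0, 14.5, 9.96 and 23.9 CPM against 1939.6 to 3845, median 2359.6 (-7.35 ± 0.37). Ctse, the gastric protease cathepsin E, stood at 0, 0, 2.41 and 0.035 against 837 to 2342, median 1406 (-11.18 ± 1.68, and -16.98 without the PDPN+ library of mouse D). Muc1, the membrane mucin with the highest TPM of its list in EpCAM+ cells (1362), stood at 4.01, 10.2, 5.12 and 9.34 CPM against 1644 to 2359.5, median 1825 (-8.05 ± 0.38). Tff2, a trefoil peptide of gastric mucus, and Agr2, a disulfide isomerase needed for mucin folding, stood at 0, 0.159, 0.171 and 0 and 0, 1.00, 0.588 and 0 CPM in PDPN+ libraries, and 131 to 276, median 146, and 104 to 336, median 228, respectively, in EpCAM+ libraries. PDPN+ values were at or near 0 throughout.

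The mucin genes against the rest were Muc16, Muc2 and Galnt6. All 3 overlapped between the populations. None was called higher with the mouse block, where 22 of the 23 genes of the list were tested, or without the EpCAM+ libraries of mice A and B, where 21 were. Muc16, which encodes the CA125 antigen and is also a mesothelial mucin, stood at 35.2, 52.4, 18.2 and 0 CPM in PDPN+ libraries and 0.0844 to 1.43, median 0.859, in EpCAM+ libraries; its edgeR adjusted p was 0.0149, but 0.268 with the mouse block. Galnt6, a mucin-type glycosyltransferase, stood at 12.0, 6.2, 2.77 and 0 CPM (adjusted p = 0.0151, and 0.297 with the block). Both were at 0 in mouse E. Several EpCAM+ genes of other kinds had 0 reads in all PDPN+ libraries: Apob, an apolipoprotein, was at least 7141-fold higher in EpCAM+ cells, Tmprss2, a membrane serine protease, at least 5943-fold, Tmem45b at least 4894-fold, Pls1, a microvillus bundling protein, at least 3396-fold, Gcnt3, a mucin core glycosyltransferase, at least 2853-fold, and Ppp1r1b, a phosphatase inhibitor, at least 2522-fold.

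Signals between the populations were read from 87 ligand and receptor pairs, which hold 84 ligand and 68 receptor genes. Of the ligand genes 30 were higher in PDPN+ cells, 16 lower, 29 did not pass and 9 were too low to test. Of the receptor genes 22 were higher, 6 lower, 35 did not pass and 5 were not tested. The shares over all genes tested were 16.1% higher and 14.7% lower. Ligand and receptor were both higher in PDPN+ cells in 13 pairs and both lower in 4, the ligand was lower and the receptor higher in 3, and the ligand higher and the receptor lower in 1. With the mouse block both genes passed in 6 of the 13 pairs, 1 of the 4, 2 of the 3 and 0 of the 1, and without the sparse libraries in 13, 3, 3 and 1. Some pairs share a gene, such as Tgfbr2 or Fgfr1, so that the pairs are not separate results. These are transcript levels and show no signalling.

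Growth factor genes of the 13 pairs were those of the FGF, TGF-beta, WNT, CSF1, VEGF, apelin, interleukin-33, slit and collagen families. Fgf1 stood at 383, 239, 212 and 75.2 CPM in PDPN+ libraries and 5.45 to 43.3, median 12.2, in EpCAM+ libraries (log2 difference 3.86 ± 0.63). Its receptor gene Fgfr1 stood at 185, 51.9, 86.8 and 172 against 0.61 to 2.95, median 1.36 (6.27 ± 0.55). Wnt5a, a noncanonical WNT, stood at 10.3, 16.0, 31.0 and 14.5 CPM against 0.0871 to 0.761, median 0.203 (6.05 ± 0.77); its receptor gene Ror2 passed at an edgeR adjusted p of 0.0103, but not with the mouse block (adjusted p = 0.147). Tgfb2 stood at 14.1, 18.9, 88.5 and 10.6 CPM, highest in mouse D, against 0.535 to 3.01, median 1.65 (4.26 ± 0.74). The shared receptor gene Tgfbr2 stood at 238, 129, 234 and 119.9 against 28.3 to 70.5, median 58.9 (1.75 ± 0.31). Tgfb3 had the highest TPM of the TGF-beta ligands in PDPN+ cells (37.7); it passed at 0.00629 but not with the block (0.104).

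Csf1, the macrophage growth factor, stood at 36.8, 37.5, 201 and 40.5 CPM against 5.05 to 18.4, median 7.78 (3.15 ± 0.59, and 1.99 without the PDPN+ library of mouse D), and its receptor gene Csf1r, a defining macrophage gene, at 167, 58.3, 38.2 and 58.0 against 2.26 to 6.41, median 4.23 (4.16 ± 0.48). Of 14 macrophage and monocyte genes tested, however, 3 were higher, 1 was lower and 10 did not pass. The leukocyte gene Ptprc lay lower in every PDPN+ library than in any EpCAM+ library. Which cells the Csf1r reads came from was not tested. Il33, an alarmin of stromal and barrier cells, stood at 601, 761, 486 and 1234 CPM against 62.4 to 329, median 118 (2.49 ± 0.46). Its receptor gene Il1rl1 stood at 7.95, 25.2, 17.9 and 55.6 against 0.157 to 1.28, median 0.401 (5.65 ± 0.78). The collagen receptor gene Ddr2 (8.67 ± 0.72) was higher beside Col1a1. Slit3, a guidance ligand, stood at 280.4, 174, 171 and 118 CPM against 0 to 0.344, median 0.205 (10.00 ± 0.92), while Robo1, Fgf7, Fgfr2, Apln and Vegfa did not pass with the mouse block (adjusted p = 0.33, 0.261, 0.149, 0.0658 and 0.15).

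In 3 pairs the ligand gene was high in EpCAM+ and the receptor gene in PDPN+ cells. Tnf, the inflammatory cytokine TNF, stood at 0, 0.0682, 0.0759 and 0.455 CPM in PDPN+ libraries and 31.0 to 58.2, median 37.1, in EpCAM+ libraries (log2 difference -8.10 ± 1.02, edgeR adjusted p = 0.000172). Tnfrsf1a, its main receptor gene, stood at 236, 222, 167 and 214 against 32.2 to 74.6, median 56.0 (1.93 ± 0.25). Il1a, the interleukin-1 gene held by epithelia, stood at 0, 0, 1.29 and 0 CPM against 49.7 to 150.3, median 79.4 (-7.98 ± 1.54, and -15.1 without the PDPN+ library of mouse D). The receptor gene Il1r1 stood at 688, 573, 355 and 699.8 against 33.9 to 69.2, median 48.4 (3.57 ± 0.27). Il1b, the other interleukin-1 agonist, did not pass (log2 difference 0.84 ± 0.96). Pdgfb stood at 0, 1.05, 1.02 and 0 CPM against 6.5 to 12.5, median 9.83 (adjusted p = 0.0329, and 0.134 with the mouse block; without any 1 of the 6 EpCAM+ libraries it was between 0.0501 and 0.0626). Pdgfrb, its receptor gene on mural cells and fibroblasts, stood at 189, 61.9, 133 and 85.6 against 0 to 1.12, median 0.386 (8.13 ± 1.24).

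The hedgehog ligand genes, which pancreatic tumour cells are known to send to stroma, were all lower in PDPN+ cells: Ihh stood at TPM means of 0.0226 and 2.37 in PDPN+ and EpCAM+ cells, Dhh at 0.0245 and 0.866, and Shh had 0 reads in PDPN+ libraries against 1.55 TPM. None of the 3 passed with the mouse block (edgeR adjusted p = 0.056, 0.112 and 0.0901). Their receptor and target gene Ptch1 stood at 6.16, 4.32, 2.45 and 46.7 CPM against 6.11 to 17.0, median 13.8, and did not pass (0.25 ± 0.79); without the library of mouse E it was lower in PDPN+ cells (log2 difference -1.64, adjusted p = 0.0342). Rspo1, a secreted WNT amplifier, formed the pair in the reverse direction, with 34.3, 42.1, 19.4 and 0.28 CPM against 0 to 0.253, median 0.0401 (8.09 ± 1.51), lowest in mouse E; its receptor gene Lgr4 was lower at 0.0157, but did not pass with the block (0.0856). Both genes of the pair were lower in PDPN+ cells for Efna1 and Epha2, an ephrin and its receptor (-2.74 ± 0.51 and -2.85 ± 0.42). Each of the other 3 such pairs held a gene that did not pass with the block, among them Wnt7b, a WNT ligand, at 0.0501, and Sema4d, a semaphorin, at 0.0923.

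**Figure D5:**
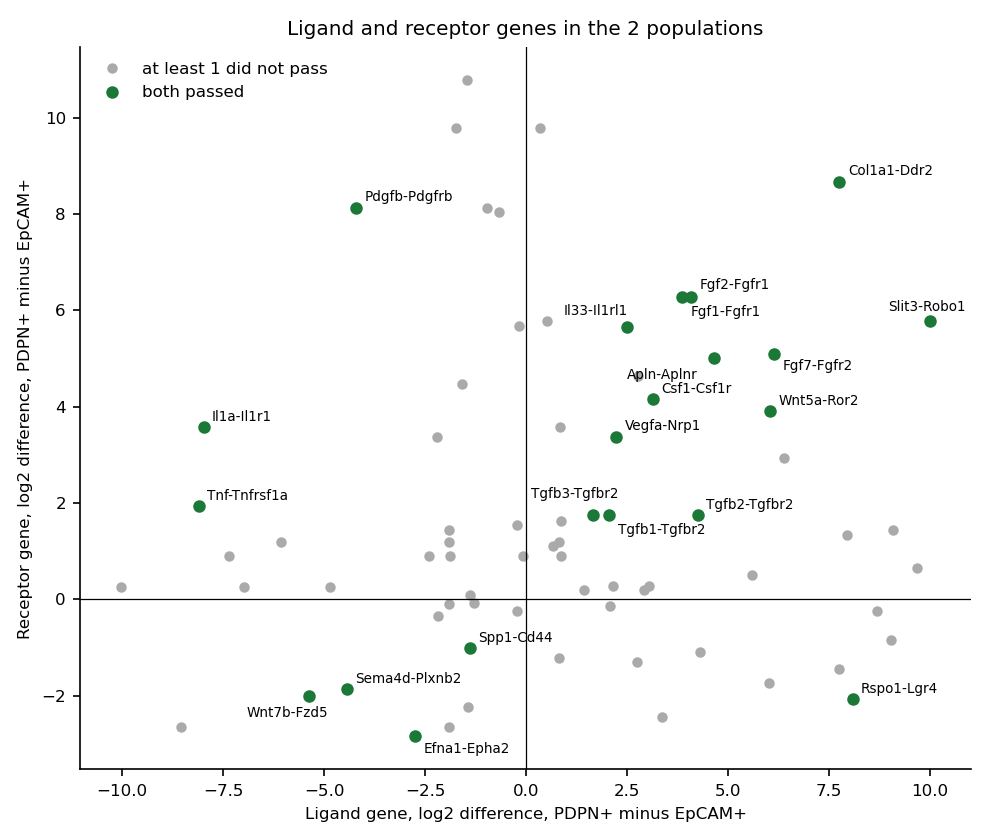
Log2 difference (PDPN+ minus EpCAM+) of each ligand gene on the x axis and of its receptor gene on the y axis for the pairs in which both were tested, green and named where both passed. The 13 pairs at the upper right were higher in PDPN+ cells for both genes, and Pdgfb, Il1a and Tnf lie at the upper left with their receptors.

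In the EGFR family 5 of 10 genes tested were lower in PDPN+ cells and none higher (1 higher and 6 lower without the sparse libraries; 0 and 3 with the mouse block). Hbegf, a ligand of EGFR, stood at 197, 117, 97.4 and 158 CPM in PDPN+ libraries and 601 to 892, median 768, in EpCAM+ libraries (log2 difference -2.41 ± 0.23). Areg, amphiregulin, stood at 0.0326, 0.0227, 0.379 and 0.035 against 9.48 to 37.3, median 18.5 (-7.34 ± 1.12). Btc, betacellulin, was lower too (log2 difference -3.39 ± 0.52). The receptor gene Erbb3 stood at 0, 14.9, 5.18 and 0.035 CPM against 125 to 392, median 233 (edgeR adjusted p = 0.0148, and 0.0647 with the mouse block). Egfr itself spread widely over PDPN+ libraries, 8.18, 171, 94.8 and 239.8 CPM against 42.5 to 111, median 64.5, and did not pass (edgeR adjusted p = 0.33, and 0.0285 without the library of mouse A).

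Complement genes came next. Of 17 complement genes tested 10 were higher and 2 lower (12 higher and 2 lower without the sparse libraries). The shares were 58.8% and 11.8%, beside 16.1% and 14.7% over all genes tested. C3, the central component, stood at 9028, 5607, 3931 and 2182 CPM in PDPN+ libraries and 29.4 to 46.1, median 40.5, in EpCAM+ libraries (log2 difference 7.03 ± 0.39, edgeR adjusted p = 7e-07). Serping1, the C1 inhibitor, stood at 5167, 3219.8, 2402 and 3166 CPM against 2.14 to 16.8, median 6.76 (8.79 ± 0.62). Cfb, factor B, stood at 7690.3, 6128, 2529 and 2214 against 116 to 218, median 145 (4.94 ± 0.38). Clu, the secreted chaperone clusterin that also restrains complement, went the other way at a high level in both: it stood at 6393, 6558, 2209 and 3096 CPM against 21577 to 40401, median 32064 (-2.82 ± 0.35), at 28207 TPM in EpCAM+ cells. Cfi, the protease that inactivates C3b, was lower too, with 0, 3.7, 2.01 and 1.22 CPM against 148 to 232, median 198 (-6.80 ± 1.00).

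Of 28 interferon response and MHC class I genes 19 were higher and none lower (21 higher and 0 lower without the sparse libraries; 12 and 0 with the mouse block), with a median log2 difference of 2.43. B2m, the light chain of MHC class I, stood at 2915, 1475, 1293 and 1691 CPM in PDPN+ libraries and 193 to 359.9, median 247, in EpCAM+ libraries (2.79 ± 0.26). The heavy chain gene H2-K1 stood at 1823, 901, 817 and 800.5 against 206 to 305, median 269 (2.02 ± 0.24), highest in mouse A. The second heavy chain gene, H2-D1, stood at 3054, 511, 1787 and 1001 CPM against 843 to 1239, median 1004, and did not pass (edgeR adjusted p = 0.237, and 0.0467 without the library of mouse C); MHC class I genes are close copies that may share reads. Ifi27, an interferon-induced gene, was higher by 2.76 ± 0.20.

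Nuclear receptor genes gave 10 higher, 6 lower and 22 not passing of 38 (14 higher and 9 lower without the sparse libraries, and 6 and 2 with the mouse block). The shares were 26.3% higher and 15.8% lower, beside 16.1% and 14.7% over all genes tested, so that the lower share was near that of all genes. Those higher included the Nr4a immediate early receptors, with Nr4a1 at 1984, 2139, 1186 and 2123 CPM against 278 to 679, median 364 (log2 difference 2.22 ± 0.27) and Nr4a2 at 4.45 ± 0.37. Those lower included Hnf4a, Hnf4g (-11.40 ± 0.93) and Pparg, a regulator of fat storage genes, which stood at 0, 5.57, 1.33 and 0 CPM against 67.0 to 118, median 93.3 (edgeR adjusted p = 0.00979, and 0.0736 with the mouse block). Nr1h2, an oxysterol receptor, did not pass (-0.36).

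Among metabolic genes, glycolysis and lactate genes gave 2 higher and 5 lower of 25 (2 higher and 9 lower without the sparse libraries, and 0 and 2 with the mouse block). Amino acid genes gave 3 and 2 of 30 (4 higher and 11 lower without the sparse libraries, and 2 and 1 with the mouse block). Lipid genes gave 9 and 5 of 25 (8 higher and 8 lower without the sparse libraries, and 6 and 4 with the mouse block). The shares were 8% and 20%, 10% and 6.67%, and 36% and 20%, beside 16.1% and 14.7% over all genes tested. Of the same 17601 genes 3438 were higher and 3969 lower without the sparse libraries. With the mouse block it was 1080 and 769 of 16688. Pkm, pyruvate kinase, stood at 1865, 2267, 1674 and 2220.5 CPM in PDPN+ libraries and 3151 to 5202, median 4080.3, in EpCAM+ libraries (log2 difference -1.02 ± 0.17, edgeR adjusted p = 0.000759), whereas Eno1, enolase, stood at 2034, 2202, 1753 and 1983 against 1854 to 2506, median 1999, and did not pass (-0.04 ± 0.13). Slc7a11, the cystine importer, was lower, with 0.489, 0.205, 2.41 and 0.63 CPM against 11.5 to 39.8, median 25.6 (-4.76 ± 0.83). Enpp2, the lysophospholipase autotaxin, stood at 3334, 1810.0, 1418 and 3630.1 CPM against 9.71 to 28.0, median 17.6 (7.21 ± 0.42), and Plin2, a lipid droplet coat protein, and Sqle, an enzyme of sterol synthesis, were lower (-1.50 ± 0.23 and -1.56 ± 0.27).

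Of 28 proliferation genes 3 were higher, 1 lower and 24 did not pass (3 higher and 2 lower without the sparse libraries; 0 and 1 with the mouse block), shares of 10.7% and 3.57% beside 16.1% and 14.7% over all genes tested. Pcna, the replication clamp, stood at 87.6, 88.2, 75.1 and 123 CPM against 72.4 to 106, median 93.5 (0.01 ± 0.20). On log2(TPM + 1) its difference was -0.55 with a limma adjusted p of 0.00986, where the median over all genes tested was -0.59. Mcm6, a helicase subunit, was lower at 39.4, 26.2, 67.8 and 38.3 against 101 to 178, median 134 (-1.64 ± 0.29, edgeR adjusted p = 0.00134). Rrm2, a subunit of ribonucleotide reductase, stood at 3.29, 76.5, 72.6 and 2.83 CPM in PDPN+ libraries, low in both sparse libraries, and did not pass.

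Among 12 driver and tumour suppressor genes of pancreatic cancer 1 was higher and 4 were lower. The shares were 8.33% and 33.3%, beside 16.1% and 14.7% over all genes tested. Without the sparse libraries 1 was higher and 7 lower, and with the mouse block 1 and 2. The higher gene was Tgfbr2, which did not pass on log2(TPM + 1) (limma adjusted p = 0.138). Cdkn2a, which encodes the INK4A and ARF proteins, was lower with 0.0978, 1.11, 1.35 and 2.66 CPM against 19.3 to 45.2, median 35.3 (log2 difference -4.65 ± 0.81, edgeR adjusted p = 0.00118; picked after its values were seen). Rnf43, a ligase that removes WNT receptors, had 0 reads in PDPN+ libraries and was at least 399-fold higher in EpCAM+ cells. Trp53 stood at 97.1, 78.0, 69.5 and 212 CPM against 104 to 140.2, median 111, and did not pass (-0.01 ± 0.30); without the sparse libraries it was lower in PDPN+ cells (log2 difference -0.72, adjusted p = 0.0112), and without that of mouse E alone the adjusted p was 0.0231. The tables do not separate mutant from wild-type alleles.

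Targets of p53 gave 5 higher and 2 lower of 24 (7 higher and 4 lower without the sparse libraries, and 1 and 1 with the mouse block). The shares were 20.8% and 8.33%, beside 16.1% and 14.7% over all genes tested, so that the higher share was near that of all genes. Cdkn1a, the cell cycle inhibitor p21, stood at 116, 130.3, 219.7 and 386 CPM against 86.5 to 183, median 163, and did not pass. Pmaip1, the pro-death protein NOXA, was lower with 1.04, 48.8, 26.7 and 77.7 CPM against 576 to 922, median 637 (-4.13 ± 0.85, edgeR adjusted p = 0.00354), lowest in mouse A. Perp, a desmosome protein, was lower at 0.017, but did not pass with the mouse block (0.0906).

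Markers of other cells that a sort might carry were read in both populations, and their part in the results above was not tested. Over all genes tested 16.1% were higher and 14.7% lower in PDPN+ cells. Macrophage and monocyte genes gave 3 higher and 1 lower of 14 tested (4 higher and 3 lower without the sparse libraries; 1 and 0 with the mouse block), and summed to 304 to 708 CPM in PDPN+ and 297 to 435 CPM in EpCAM+ libraries; Cd14, which also stromal and epithelial cells make, was the most abundant at 374, 367, 212 and 365 CPM in PDPN+ and 240.2 to 368, median 276, in EpCAM+ libraries. Adgre1, the macrophage gene F4/80, stood at 95.6, 0, 1.33 and 0 against 0.0571 to 2.44, median 0.427. Adgre1 did not pass, but it passed as higher in PDPN+ cells in the fit of all 19 libraries (edgeR adjusted p = 0.0455). It also passed without the PDPN+ library of mouse E (0.0439). Csf1r, given above beside its ligand gene, was higher in PDPN+ cells. Ptprc, the defining leukocyte gene CD45, stood at 0, 0.114, 1.8 and 0.035 against 3.22 to 8.47, median 4.93, in EpCAM+ libraries. For Ptprc all PDPN+ libraries lay below every EpCAM+ library; it did not pass (edgeR adjusted p = 0.0716), but it passed as lower with DESeq2 (0.00285), with length offsets (0.0325), with limma voom (0.0113) and on both TPM scales (0.000405 and 0.00024). It also passed without the sparse libraries (0.0489) and without the PDPN+ library of mouse D (0.00126). Lymphocyte genes gave 0 higher and 0 lower of 2 tested (1 higher and 0 lower without the sparse libraries; 0 and 0 with the mouse block) and summed to 0 to 2.94 CPM in PDPN+ and 1.62 to 3.91 CPM in EpCAM+ libraries. Blood endothelial genes gave 3 higher and 0 lower of 10 tested (5 higher and 1 lower without the sparse libraries, and 1 and 0 with the mouse block). These genes summed to 51.5 to 234 CPM in PDPN+ and 23.0 to 52.8 CPM in EpCAM+ libraries. Pecam1 stood at 8.21, 22.3, 1.4 and 19.3 CPM against 0.279 to 3.25, median 0.57. Cdh5 stood at 0, 10.2, 0 and 0 CPM against 0.0181 to 13.8, median 2.11. Cdh5 did not pass, but it passed as lower in PDPN+ cells without the PDPN+ library of mouse C (edgeR adjusted p = 0.0261). Lymphatic endothelial genes, of interest because lymphatic vessels carry podoplanin, gave 2 higher and 0 lower of 3 tested (2 higher and 0 lower without the sparse libraries; 0 and 0 with the mouse block), summed to 6.98 to 28.2 CPM in PDPN+ and 0.904 to 3.23 CPM in EpCAM+ libraries, and Prox1, their defining factor, stood at 0, 0.182, 0.796 and 0 CPM against 0.511 to 3.04, median 1.79, in EpCAM+ libraries. Prox1 did not pass (edgeR adjusted p = 0.116), but it passed as lower in PDPN+ cells with DESeq2 (0.0126) and without the PDPN+ library of mouse D (0.0193). Pericyte and smooth muscle genes gave 5 higher and 0 lower of 8 tested (6 higher and 1 lower without the sparse libraries; 2 and 0 with the mouse block) and summed to 96.4 to 359 CPM in PDPN+ and 12.4 to 33.8 CPM in EpCAM+ libraries, led by Des and Kcnj8, a potassium channel gene at 24.6, 26.4, 38.3 and 78.7 against 0 to 0.211, median 0, CPM. Schwann cell genes gave 0 higher and 1 lower of 4 tested (0 higher and 1 lower without the sparse libraries; 0 and 0 with the mouse block) and summed to 3.67 to 46.3 CPM in PDPN+ and 35.6 to 86.5 CPM in EpCAM+ libraries. Neutrophil genes gave 0 higher and 1 lower of 7 tested (0 higher and 1 lower without the sparse libraries; 0 and 1 with the mouse block); the lower gene was Ltf, lactoferrin, also a secretory product of glands, with 0.0326, 8.48, 0.891 and 0 CPM in PDPN+ libraries and 619 to 993, median 733, in EpCAM+ libraries. Red cell and platelet genes gave 2 higher and 1 lower of 7 tested (2 higher and 1 lower without the sparse libraries; 0 and 0 with the mouse block).

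In the EpCAM+ libraries pancreatic genes of other origin were found. Islet genes gave 0 higher and 7 lower of 8 tested (0 higher and 7 lower without the sparse libraries; 0 and 3 with the mouse block) and summed to 6.48 to 17.6 CPM in PDPN+ and 85.0 to 1415 CPM in EpCAM+ libraries; Ins2, insulin, stood 8.25 to 867, median 41.2, CPM in EpCAM+ libraries, highest in mice B and A, against 6.42, 1.43, 2.43 and 4.9 in PDPN+ libraries. Sst, somatostatin, had 0 reads in all PDPN+ libraries and stood 5.82 to 122, median 19.9, CPM in EpCAM+ libraries. Acinar genes gave 2 higher and 2 lower of 14 tested (2 higher and 1 lower without the sparse libraries; 0 and 0 with the mouse block) and summed to 34.6 to 112 CPM in PDPN+ and 8.33 to 1243 CPM in EpCAM+ libraries; none of the more abundant ones passed, such as the chymotrypsin gene Ctrb1 (14.4, 1.7, 1.31 and 13.9 CPM in PDPN+ and 0.0197 to 331, median 33.7, in EpCAM+ libraries), and close copies among them may share reads.

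All 13 mitochondrially encoded messenger genes were higher in PDPN+ cells, also with the mouse block and without the sparse libraries, with a median log2 difference of 2.90 (1.86 without those libraries). Their sum was 48219 to 186880.0 CPM in PDPN+ and 14024 to 21544 CPM in EpCAM+ libraries. The cytochrome b gene mt-Cytb stood at 27552, 19912, 12886 and 52716 CPM against 2819.5 to 5008, median 3400.0, highest in mouse E. Genes known to respond to tissue dissociation gave 9 higher and 0 lower of 22 (7 higher and 0 lower without the sparse libraries; 5 and 0 with the mouse block): Fos stood at 8689, 7964, 4589 and 7693 CPM against 3661 to 7175, median 6358, and did not pass, while Zfp36, a decay factor for cytokine messages, stood at 2026, 3107, 1601 and 2805 against 565 to 1106, median 944 (log2 difference 1.44 ± 0.24, edgeR adjusted p = 0.000894). RNA quality is not given in the sources used here, and its part was not tested.

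To ask whether the population difference depends on treatment, the difference in vehicle mice was set against that in neratinib mice, which share no library with them. Neratinib blocks the ERBB receptor kinases. In edgeR's quasi-likelihood test over all 19 libraries 13 of 19626 genes (0.0662%) differed in this interaction, 12 of them with a more positive PDPN+ minus EpCAM+ difference in vehicle mice; 2190 had an unadjusted p under 0.05. With a mouse block, which keeps the 8 animals that gave both sorts, none passed (347 at an unadjusted p under 0.05), and with DESeq2 678 did. Of the 5420 vehicle calls tested there, 5240 (96.7%) had the same sign between PDPN+ and EpCAM+ cells of neratinib mice, and 4262 also passed in them. The genes of smallest p in this interaction were Trmt61b, a mitochondrial tRNA methyltransferase, with a difference of 11.27 ± 1.15, and D3Ertd751e with 8.75 ± 1.12. These values came from the neratinib mice. In the fit of all 19 libraries Trmt61b differed between the populations by -0.026 in vehicle and -11.30 in neratinib mice. For D3Ertd751e the differences were 0.46 and -8.29.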

How the data were processed

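Libraries came from sorted cells by a low-input method in which more PCR cycles were run on less RNA, per the labels' protocols. The authors deposited 1 table per library with estimated counts and TPM for 147828 transcripts, made with Salmon 1.9.0 on GRCm39, per the submitters' processing notes and the file headers. Estimated counts were summed per gene here and rounded to whole numbers. Gene names came from the GENCODE M21 annotation (GRCm38) by transcript identifier, for 137063 transcripts and 51707 genes; no coordinates of that annotation were used, and the 10765 other transcripts (5.45 to 6.47% of PDPN+ and 1.95 to 2.26% of EpCAM+ reads) stayed out of the tests. Promoter windows exclude chromosome 18.

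The populations were compared in R 4.3.3 by the robust quasi-likelihood test of edgeR 4.0.16 after TMM scaling and the filter of filterByExpr, with Benjamini-Hochberg adjustment over 17601 genes at 0.05; the fit was checked on simulated data. CPM are counts scaled to 1000000 per library after TMM scaling. TPM means serve to compare levels between genes and, with limma 3.58.1, as an alternative scale. Other alternatives were DESeq2 1.42.0, other scalings, filters, offsets and thresholds, each library left out in turn, and the libraries that stand apart left out. A gene with 0 reads in a group is set against a floor of 3 reads in that group's shallowest library (0.105 CPM for PDPN+ and 0.0633 for EpCAM+), and fold bounds cover counting error only.

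The numbers in the titles were taken to mark the same mouse. Deviations of same-numbered libraries from their group means correlated at 0.025, 0.031, -0.0014 and 0.021 over genes in the 4 pairs. The fit with the mouse as a block is given where it ends a call or moves a count by more than 1.5 times.

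The lists (41, with 751 distinct genes), the pairs, the members and the libraries that stand apart were chosen with earlier results of these data known. Genes were named by rule: a fixed set, the 6 largest differences per direction at a mean of at least 50 CPM with no overlap, the 6 highest TPM per direction with a log2 difference of at least 3, up to 4 of the highest TPM and up to 3 against the majority in each list, and both genes of called pairs. Named outside this rule, after their values were seen, were Adgre1, Cdh5, Cdkn2a, Cldn23, Col4a1, Col4a2, Col11a2, Col27a1, Crb3, Dhh, Egfr, Esrp2, Foxf1, Gpm6a, Hspg2, Ihh, Il1b, Itga11, Lama1 to Lama4, Lamb1, Lamb2, Lamc1, Lrrn4, Msln, Nid1, Pecam1, Ptbp3, Ptch1, Ptprc, Rab25, Rnf43, Shh, Snai1, Snai2, Twist2, Upk3b and the epithelial factor genes listed as having 0 reads. A few genes are not reported here.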

Additional observations from a re-analysis of the deposited data

Results flagged for a closer look

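A library was singled out where the gap between its value and the nearest other of its group, as a share of the group's whole range of log2 CPM, was above Dixon's 95% critical value for 4 or 6 libraries. Over the genes of the text with at least 1 CPM in some library of the group, 30 of 365 groups of 4 or 6 libraries were singled out; chance singles out about 1 in 20. None of the 10 groups of library measures was. The share of the range is given in brackets. The EpCAM+ library of mouse A stood apart from the rest of its group for Trp53 (0.647) on the high side. The EpCAM+ library of mouse B stood apart from the rest of its group for Cdh11 (0.653), Pmaip1 (0.679) and Tff2 (0.773) on the high side. The EpCAM+ library of mouse C stood apart from the rest of its group for Eno1 (0.643) on the high side, and for Prox1 (0.669) on the low side. The EpCAM+ library of mouse D stood apart from the rest of its group for Pecam1 (0.699) on the high side. The EpCAM+ library of mouse F stood apart from the rest of its group for Ctnna1 (0.771) on the low side. The PDPN+ library of mouse A stood apart from the rest of its group for Gpm6a (0.832), H2-K1 (0.857) and Lama4 (0.899) on the high side, and for Lamb1 (0.858) on the low side. The PDPN+ library of mouse C stood apart from the rest of its group for Cdh1 (0.874), Cdh5 (1), Lama3 (0.851), Mmp7 (1) and Wnt7b (0.907) on the high side, and for Itga11 (0.856) and Mmp2 (0.968) on the low side. The PDPN+ library of mouse D stood apart from the rest of its group for Csf1 (0.942), Ctse (0.909) and Il1a (1) on the high side, and for Cd14 (0.955) and Nr4a1 (0.872) on the low side. The PDPN+ library of mouse E stood apart from the rest of its group for Pcolce (0.845) and Timp1 (0.929) on the high side, and for Fgf7 (0.857), Krt18 (0.922), Muc16 (0.83) and Rspo1 (0.836) on the low side.

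The difference between the populations itself differed between vehicle and neratinib mice for 13 genes by the interaction test of edgeR (Benjamini-Hochberg adjusted p under 0.05), and for 0 with the mouse block. Each value is the log2 difference of PDPN+ from EpCAM+ cells in vehicle mice minus that in neratinib mice. It was 11.27 for Trmt61b, 8.749 for D3Ertd751e, 8.89 for Plekhb1, 9.984 for Gm15533, 11.94 for Dapk2, 7.905 for Car2, 5.872 for Lin9, 7.511 for Gm28536, 9.868 for 2310015A10Rik, 8.293 for 1700061N14Rik, 10.31 for Nudt12 and 7.568 for Gm42815, and -7.243 for Large2.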

How the results depend on the processing

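By edgeR 5421 of 17601 genes tested were called. DESeq2 called 8797 of 34503, 4652 of them lower in PDPN+ cells and 5287 shared with edgeR. The fit without the sparse libraries called 8477 of 19989, 4282 higher and 4195 lower, with 4760 shared. Since the genes tested differ, these counts are not on a like base. On log2(TPM + 1) 4960 were lower, on log2(TPM + 0.1) 1879 were higher and 4716 lower, and at a log2 difference tested against 1, 1807 were higher. Leaving out each replicate in turn gave 4390 to 6486 calls, 2328 to 3113 higher and 2061 to 3763 lower. The other alternatives stayed within 1.5 times of each of these counts. The interaction count of 13 became 678 with DESeq2 and 10 with no low-count filter. The difference of -2553 in genes with at least 10 reads (PDPN+ minus EpCAM+) became 128.3 without the sparse libraries; the cause was not tested beyond that removal. The other library measures kept their direction, and with 2 against 6 libraries no p can go below 0.0357.

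With the mouse number as a replicate block over 8 libraries 1849 genes were called (1080 higher and 769 lower), 1839 of them shared with the 5421, and the same libraries with no block gave 3642, of which 1697 were lower. The interaction with the block called 0 genes (347 at an unadjusted p under 0.05, smallest adjusted p 0.425). Of 179 calls among the genes named with a test of their own 33 were lost with the block: 30 are given beside their results, and the others were Foxa1, Foxa2 and Pecam1 (adjusted p = 0.0771, 0.087 and 0.226). The block changed no other call and turned no sign of a call.

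Of 210 genes of the text 180 were called, 137 of them in every alternative that tested them, and none turned its sign with a call. Of genes not called, Pcna was lower on log2(TPM + 1) and log2(TPM + 0.1) (log2 difference -0.5542 and -0.5603), and Ptch1 was lower without the sparse libraries (-1.967, adjusted p = 0.0141); leaving out 1 replicate gave Ptch1 values from -1.643 to 0.4881. On the TPM scale Eno1, Msln, Nr1h2, Rrm2 and Trp53 also passed, all as lower in PDPN+ cells. The median log2 difference over all genes tested was itself -0.59 on log2(TPM + 1) and -0.82 on log2(TPM + 0.1). On log2(TPM + 1) Eno1 (-0.52), Pcna (-0.55) and Trp53 (-0.63) lay near that median, so that these calls show no change apart from it. Calls of Dhh, Galnt6, Itga2, Krt18, Lgr4, Muc16, Pdgfb, Pecam1, Perp, Ror2 and Wnt7b were lost without the EpCAM+ libraries of mice A and B (adjusted p = 0.0505 to 0.0879), and limma voom lost those of Itgb4, Lama3, Lamb3, Ins2 and 6 others. The causes were not tested. Low counts limit the genes near 0 in PDPN+ cells, whose fitted differences depend on the prior count.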
